A study of Mus musculus with 3 samples.

Results

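The EGF family ligands and receptors were followed here in cells sorted as macrophages from mouse skin. They comprise 10 genes, chosen by name and not by their values: the ligands Egf, Tgfa, Areg (amphiregulin), Ereg (epiregulin), Hbegf (heparin-binding EGF-like growth factor), Btc (betacellulin), and Epgn (epigen), and the receptors Egfr, Erbb2, and Erbb3. The arrays measured them with 12 probes, out of the 26056 probes and 19752 genes that could be given a current symbol. All cells were sorted from backskin of CD1 mice as CD11b+Gr1-F4/80+, the study's gate for macrophages, with no treatment or transgene named in the labels. The groups were P42, P55, and P69 (postnatal days 42, 55, and 69), which the study takes as early, mid, and late telogen, the resting phase of the hair cycle (its own day for early telogen is slightly later than that of the label). Each group was 1 array hybridized with amplified RNA pooled from 3 littermate mice, and all 3 arrays lay on 1 slide. Thus, no difference between groups can be set against a spread between animals, and no test between groups was possible.

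The ligands are made as transmembrane precursors that metalloproteases cut from the cell surface, and they bind receptor tyrosine kinases on the same or on neighboring cells. Egf, Tgfa, Areg, and Epgn bind Egfr, whereas Hbegf, Btc, and Ereg bind Egfr and also Erbb4. Erbb2 has no known ligand of its own and acts as the dimerization partner of the others, and Erbb3, a receptor of neuregulins, has little kinase activity and signals in such dimers. In skin, the family is best known for its part in the growth of the epidermis, the patterning of the hair follicle, and the repair of wounds, and macrophages are a known source of Hbegf and Areg in injured tissue.

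The promoters of Erbb2 and Egfr are shown because these receptors had the 10-spot probes that were well above background on all arrays. Each is the 250 bases before the annotated start in RefSeq (GRCm38.p6), 5′ to 3′ on the strand of the gene. The capitals mark matches to a GC box (GGGCGG) or a CCAAT box (CCAAT) on either strand.
Erbb2, chr11:98412234-98412483, plus strand: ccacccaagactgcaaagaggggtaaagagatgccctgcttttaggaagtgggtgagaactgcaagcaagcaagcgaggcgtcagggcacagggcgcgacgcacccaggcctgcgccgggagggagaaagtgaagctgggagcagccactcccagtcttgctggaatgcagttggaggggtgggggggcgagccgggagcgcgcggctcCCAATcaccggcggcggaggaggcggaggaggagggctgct
Egfr, chr11:16751953-16752202, plus strand: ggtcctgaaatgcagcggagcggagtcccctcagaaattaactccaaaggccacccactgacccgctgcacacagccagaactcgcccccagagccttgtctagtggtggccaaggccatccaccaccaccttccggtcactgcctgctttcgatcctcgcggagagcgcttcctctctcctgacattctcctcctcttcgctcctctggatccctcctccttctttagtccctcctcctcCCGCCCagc
Of the bases shown, 66.0% were G or C for Erbb2 and 60.8% for Egfr, compared to a median of 52.4% over all 32851 promoters of the same length. The Erbb2 stretch had 1 CCAAT box and no GC box, and that of Egfr had 1 GC box and no CCAAT box. A GC box was found in 32.7% and a CCAAT box in 33.8% of all promoters, so neither match sets these genes apart. Promoters of 7 members (8 starts, 2 of them of Egf) were in the table, which held none for Ereg, Hbegf, or Erbb3. An AP-1 motif (TGANTCA) was found in 0 of the 8 and in 6.75% of all promoters, and a TATA box (TATAAA) in the promoters of Areg and Epgn and in 12.4% of all.

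Levels are given as the log2 of the background-corrected intensity relative to the 75th percentile of the same array, which is thus 0, averaged over the spots of a probe that the software did not mark as outliers. A probe was called well above background when this held for at least 0.5 of its spots. The lowest such signal, the floor of the array, lay at -4.50 on the P42 array, -4.04 on the P55 array, and -5.10 on the P69 array. Levels of different probes are not compared with each other because probes differ in efficiency. The error that the arrays give is that between repeated spots, with a median SD (log2) of 0.12 to 0.14 over probes with 10 or more spots. For a probe with 1 spot, the SD of the 10-spot probes of like level was used. The technical SD of a difference is that between means over spots, with each SD divided by the square root of the number of spots. It is therefore smaller for 10-spot probes than their spread between spots. This error leaves out the variation between mice, sorts, and amplifications. Levels are of RNA in sorted cells, and fewer cells of a type cannot be told apart from less RNA per cell.

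The deposited files assign the arrays of P55 and P69 in opposite ways. A table of log2 values from the authors lists 36409 probes, and its change from P42 to P69 matched the scanner file deposited for P55 (100% of 36390 probes within 0.05 of the median offset). Likewise, its P55 column matched the scanner file deposited for P69 (100% of 36396 probes), with a Pearson correlation of only 0.73 across probes between the columns and the files of the same name. Here, P55 and P69 name the arrays as the scanner files assign them. Under the other assignment, each result given for P55 belongs to P69 and each result given for P69 belongs to P55.

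Of the 10 members, 6 were well above background on all 3 arrays (Areg, Hbegf, Btc, Egfr, Erbb2, and Erbb3), 2 on some of them (Tgfa and Epgn), and 2 on none (Egf and Ereg). Detection was thus complete for the 3 receptors and partial for the 7 ligands.

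**Figure D1:**
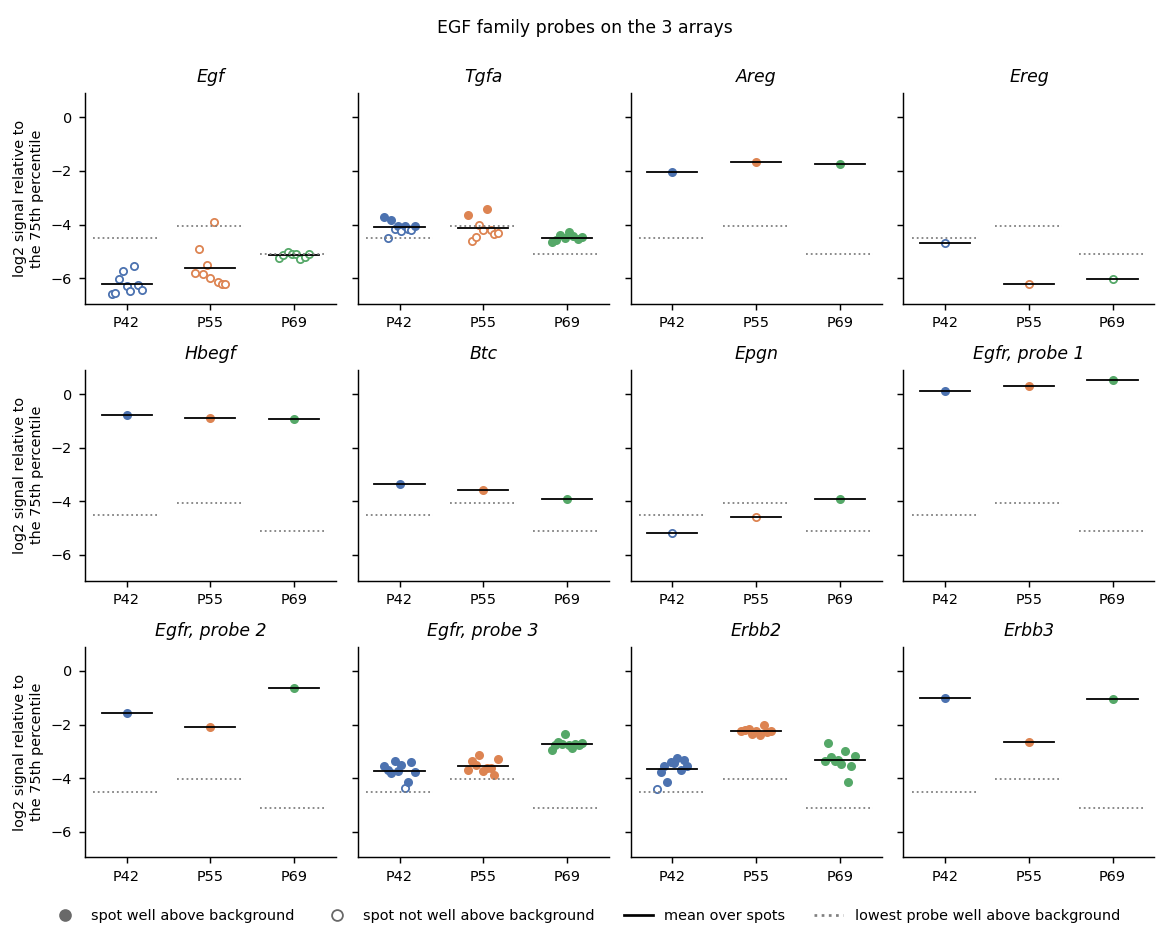
Levels of the 12 EGF family probes on the P42, P55, and P69 arrays (log2 signal, 75th percentile of the array set to 0). Points are single spots without those marked as outliers, filled when well above background, black lines are means over spots, and dotted lines mark the lowest probe signal well above background on each array (Egfr probe 1 is the brightest, probe 3 the one with 10 spots). The Erbb2 spots plotted for the P55 array lie above those of the other arrays, and the single spot of Erbb3 on the P55 array lies below both others.

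Among the ligands, Hbegf, which is shed from the surface of macrophages and other cells and binds heparan sulfate, had levels of -0.77 at P42, -0.90 at P55, and -0.94 at P69. These values lay within 0.17 of each other on the log2 scale, about the technical SD of a difference between 2 spots (0.16). Areg, an Egfr ligand that leukocytes can also make, was at -2.04, -1.68, and -1.74, respectively. It was thus 1.28-fold higher at P55 and 1.24-fold higher at P69 than at P42, with log2 differences of 0.36 and 0.31 against a technical SD of 0.20 and 0.19. With the 75th percentile taken over probes well above background on all arrays, the log2 differences were -0.01 at P55 and 0.10 at P69. With normexp background correction they were 0.19 and 0.02. All of these were below the technical SD. The largest differences were 0.92 at P55 (median scaling) and 1.47 at P69 (no scaling).

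Btc, a ligand of Egfr and Erbb4, was close to the floor, at -3.34, -3.57, and -3.93. It was 1.503-fold lower at P69 than at P42 (log2 -0.59, technical SD 0.35), but higher with quantile normalization (0.19) or without scaling (0.58), and all its differences were below 2-fold. Tgfa, made by keratinocytes and by activated macrophages, was at the limit of detection. On the P42 array 5 of its 10 spots were well above background, with spots between -4.52 and -3.70 and a mean of -4.10. On the P55 array 2 of the 9 spots that were not outliers were well above background (from -4.62 to -3.42, mean -4.14), and on the P69 array all 8 that were not outliers were (from -4.64 to -4.29, mean -4.48). The spots of the 3 arrays overlapped, and the change from P42 to P69 (log2 -0.38, technical SD 0.08) turned upward with median scaling, with quantile normalization, or without scaling.

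Epgn, an Egfr ligand of epithelia, had 1 spot, which was well above background only at P69. Its level there was -3.93, against values of -5.18 at P42 and -4.57 at P55 that were not well above background. With the dimmer array set to its floor, the bound was 1.49-fold higher at P69 than at P42 (log2 0.57) and 1.08-fold higher than at P55 (0.12). These bounds leave out the error of the spot. Its technical SD was 0.22 at P69, more than the second bound, and that of the differences was 0.67 and 0.50.

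Egf, the founding member, was not well above background in any spot that was kept, and in 1 outlier spot each at P55 (-2.43) and P69 (-4.53). Its 10-spot probe lay at -6.22 at P42, -5.62 at P55, and -5.15 at P69, all at or below the floors, and no change is given. The single spot of Ereg was likewise not well above background, at -4.69, -6.20, and -6.02. Undetected signals at this sensitivity do not show that these transcripts were absent.

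Epgn, Ereg, Areg, and Btc are consecutive genes on chromosome 5, between Mthfd2l and Parm1. Within this cluster Areg was the gene with a higher level at both later ages than at P42, Btc was lower at both, Epgn had a bound upward at P69 only, and Ereg gave no value. The changes measured on both arrays, those of Areg and Btc, were below 2-fold. The signs of Btc at both ages and that of Areg at P55 turned under at least 1 of the other scalings. At P55 the change of Btc (log2 -0.23) was smaller than its technical SD (0.38). The gene beyond Btc, Parm1, was at -2.0, -3.05, and -1.51, with a log2 change of -1.05 at P55 and of 0.49 at P69.

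Of the receptors, Erbb2 gave the clearest difference of the family measured over repeated spots. Its probe (A_52_P49250) had a mean level of -3.65 at P42 (10 spots, from -4.39 to -3.25), of -2.24 at P55 (9 spots, from -2.40 to -2.01), and of -3.33 at P69 (10 spots, from -4.16 to -2.70). These 9 spots of the P55 array were above all those of the P42 and the P69 array, which overlapped. The tenth, left out as an outlier, was at -3.29, within the range of both other arrays. Erbb2 was 2.65-fold higher at P55 than at P42 (log2 1.41, technical SD 0.12) and 2.12-fold lower at P69 than at P55 (log2 -1.08, technical SD 0.13). From P42 to P69 the log2 difference was 0.32 (technical SD 0.17). The increase at P55 kept its direction under all scalings, from 1.03 to 2.20, but was 0.54 with normexp background correction, which adds an offset to dim signals. The decrease from P55 to P69 was just past 2-fold and dropped below it with the 75th percentile over probes well above background on all arrays (-0.92), with normexp (-0.94), with the outlier spot kept (-0.98), and without scaling (-0.18).

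Erbb3 went the other way. Its single spot (A_55_P2119897) was at -1.0 at P42, at -2.66 at P55, and at -1.03 at P69. The P55 array was therefore low, and the P42 and P69 arrays differed by less than the technical SD (log2 -0.04, SD 0.16). Erbb3 was 3.16-fold lower at P55 than at P42 (log2 -1.66, technical SD 0.23) and 3.09-fold higher at P69 than at P55 (log2 1.63, technical SD 0.23). The decrease at P55 remained at least 2-fold under the other scalings and with normexp, from -2.03 to -1.10 on the log2 scale. It rests on 1 spot per array.

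On the array deposited as P55, Erbb2 was thus high and Erbb3 low relative to both other arrays. With the assignment of the value table, this array is that of P69, and the changes from P42 to P69 become 1.41 for Erbb2 and -1.66 for Erbb3 (log2), whereas those from P42 to P55 become 0.32 and -0.04.

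The genes next to these receptors were looked at in the same way. Erbb2 lies on chromosome 11 between Pgap3, whose levels were 1.25, 0.33, and -0.07 at P42, P55, and P69, and Mien1, with levels of 2.94, 3.63, and 3.01. At P55 the log2 change against P42 was -0.92 for Pgap3 and 0.69 for Mien1, both below 2-fold and of opposite sign. Erbb3 lies on chromosome 10 between Pa2g4 (0.59, 1.78, and 1.69) and Rps26 (5.28, 5.97, and 5.26), and both of these were higher at P55 than at P42, in contrast to Erbb3.

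Egfr, the receptor shared by all 7 ligands, was measured by 3 probes that differed in size of change. Its brightest probe (A_55_P1956863) was at 0.13 at P42, 0.29 at P55, and 0.54 at P69, an increase of 1.33-fold by P69 (log2 0.41, technical SD 0.14). A second probe of the same transcript (A_55_P1956862) was at -1.59, -2.10, and -0.64, so that it was lowest at P55 and 1.92-fold higher at P69 than at P42 (log2 0.94, technical SD 0.17). The other probe (A_52_P106259), annotated to another RefSeq transcript of the gene and printed in 10 spots, had means of -3.73 (spots from -4.35 to -3.37), -3.54 (from -3.86 to -3.15), and -2.72 (from -2.96 to -2.37).

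All spots of this 10-spot probe on the P69 array lay above those kept on the other arrays, which overlapped. A P55 spot left out as an outlier was at -2.58, within the range of the P69 spots. It was 2.0-fold higher at P69 than at P42 (log2 1.0, technical SD 0.11) and 1.76-fold higher than at P55 (log2 0.82, technical SD 0.09). All 3 probes were higher at P69 than at P42 under the scalings tried, but the size was not stable. It ranged from 0.20 to 1.57 for the brightest probe and, for the 10-spot probe, from 0.80 to 2.17 between scalings, and was 0.04 with normexp. At P55 the brightest and the 10-spot probe were 0.16 and 0.19 above P42 and the second was 0.51 below. The former 2 turned below P42 with the 75th percentile over probes well above background on all arrays (-0.22 and -0.19). The 10-spot probe also did so with normexp (-0.08), and the second turned above P42 with median scaling (0.05). As for all results here, the array with the highest Egfr signals is that of P55 in the value table.

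**Figure D2:**
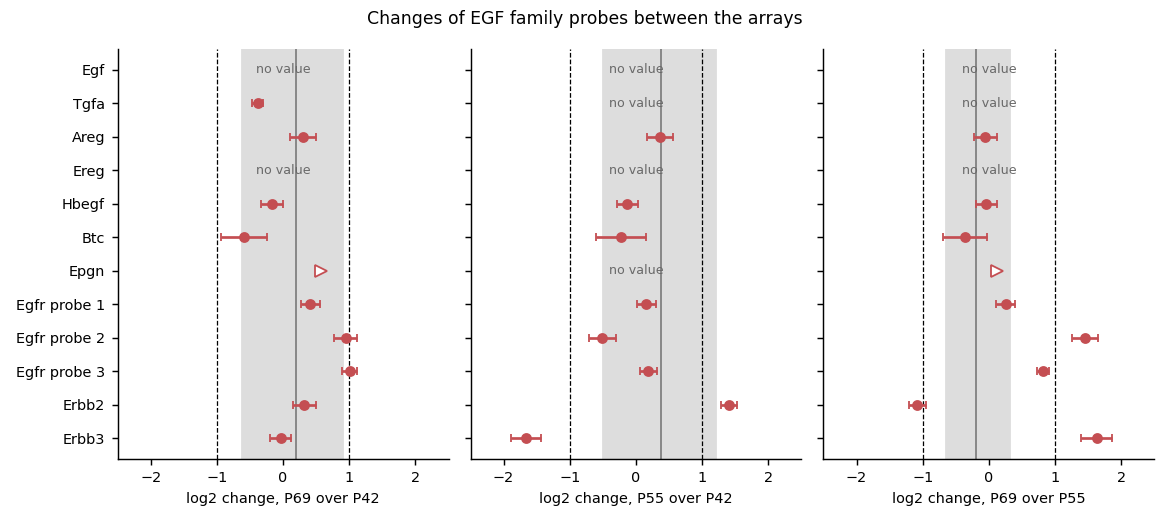
Log2 changes of the 12 EGF family probes between the arrays, one comparison per panel, with bars for the technical SD of the difference. Grey bands span the middle 50% of all genes measured on both arrays and grey lines their median, dashed lines mark 2-fold changes, and open triangles are bounds for Epgn. Erbb2 (1.41) and Erbb3 (-1.66) pass 2-fold at P55 against P42, and most other members lie inside the band.

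Against all genes, the family changed little from P42 to P69 with the main settings and the arrays as the scanner files assign them. With each gene given by its brightest probe, 0 of the 8 members that were well above background on at least 1 of these arrays were 2-fold higher and 0 were 2-fold lower. Of all 16387 such genes, 22.0% were at least 2-fold higher and 20.9% at least 2-fold lower. The signs were balanced (4 members above 0 and 4 below 0), although those of Tgfa, Hbegf, Btc, Erbb2, and Erbb3 turned under at least 1 of the other scalings or with normexp. The median absolute log2 change was 0.32 over the 7 members measured on both arrays, compared to 0.79 over 14162 genes. At the 10-fold threshold that the study's methods give, 0 of the 8 members and 1.18% of genes passed. These values depend on the choices made. The Egfr probes other than the brightest changed by 0.94 and 1.0 (log2). With the other assignment of the arrays, Erbb2 (1.41) and Erbb3 (-1.66) were past 2-fold. Without scaling, 5 members were at least 2-fold higher, as were 60.2% of all genes with a value.

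From P42 to P55, 1 of 7 members was at least 2-fold higher (Erbb2) and 1 was at least 2-fold lower (Erbb3). Over all 16008 genes, 28.9% were higher and 16.7% lower by this measure. The 2 receptors were thus not unusual on this array, since 26.7% of genes measured on both arrays changed by more than Erbb2 and 17.6% by more than Erbb3. The median absolute log2 change was 0.29 over 6 members and 0.89 over 13249 genes, and 0 of the 7 members and 1.44% of genes passed 10-fold.

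From P55 to P69, 1 of 8 members was at least 2-fold higher (Erbb3) and 1 at least 2-fold lower (Erbb2), against 7.48% and 10.8% of 15581 genes. Here the change of Erbb3 was exceeded by 3.26% of genes and that of Erbb2 by 12.4%. This comparison shares the P55 array with the former, so that these changes of Erbb2 and Erbb3 are the same measurement seen from the other side. Egfr was counted by its brightest probe, with a log2 change of 0.25 (technical SD 0.14). Its probe A_55_P1956862, with 1 spot per array, was past 2-fold (log2 1.45, technical SD 0.20). Its probe A_52_P106259 was 0.82 higher (technical SD 0.09). With normexp, the changes of the latter probes were 0.997 and 0.12. The count of members 2-fold higher thus depends on the probe that stands for Egfr.

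Other genes of the pathway are given as counts over fixed lists. In 5 lists with 69 genes (other ErbB ligands and receptor, shedding and trafficking of ligands, adaptors and cascade, inhibitors and turnover of receptors, and genes that respond to ERK), 19 of 67 genes with a signal well above background were at least 2-fold higher at P69 than at P42 and 9 were lower, with a median log2 change of 0.42. At P55, 22 of 65 were higher and 4 were lower, with a median of 0.57. Thus, 28.4% were higher and 13.4% lower at P69, against 22.0% and 20.9% of all genes, and 33.8% and 6.15% at P55, against 28.9% and 16.7%. The medians over all genes with a value were 0.15 and 0.22, and those of the pathway lay above the median of all genes under all scalings tried. With quantile normalization at P55, however, the medians were close (0.35 and 0.32). There, 17 of 65 pathway genes were at least 2-fold higher, against 29.9% of all genes with a value. The counts themselves moved with the scaling: from 16 higher and 10 lower (75th percentile over probes well above background on all arrays) to 51 and 0 (no scaling) at P69, and from 14 and 9 (the same percentile) to 37 and 2 (median scaling) at P55. The shares of all genes with a value moved likewise. They were 16.7% higher and 25.7% lower, 60.2% and 3.77%, 19.4% and 25.7%, and 46.1% and 7.85% in these settings, respectively.

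**Figure D3:**
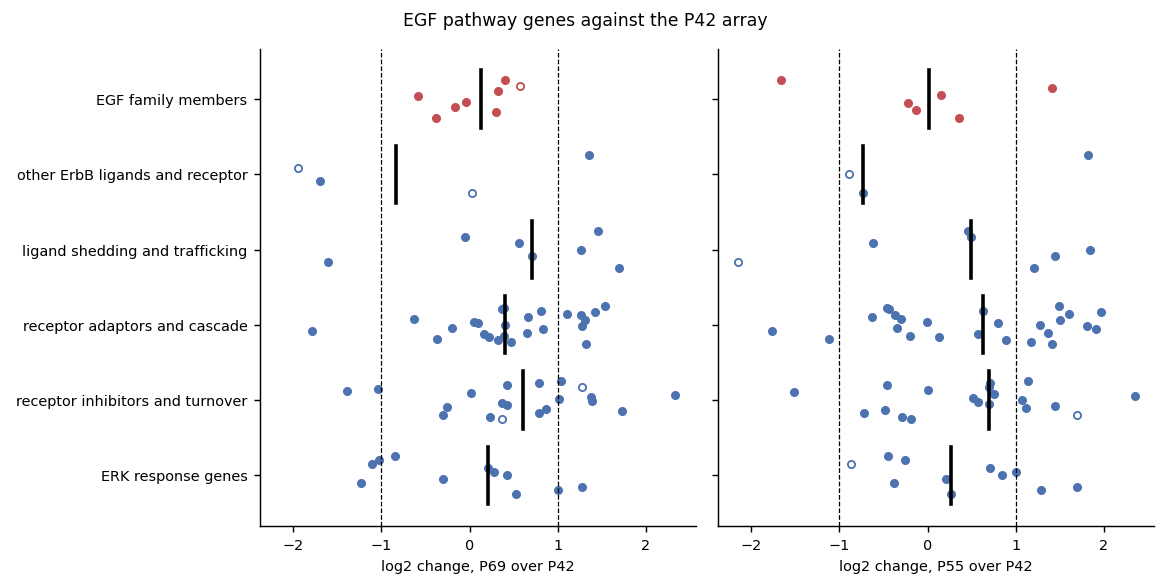
Log2 changes of the EGF family (red) and of 5 lists of EGF pathway genes (blue) against the P42 array, at P69 (left) and P55 (right). Each point is a gene, open points are bounds, black lines are medians, and dashed lines mark 2-fold changes. Lrig1, in the list of receptor inhibitors and turnover, has the largest increase among the pathway genes measured on both arrays compared (2.33 and 2.35). Bounds, such as that of Spry4 at P55, are not ranked.

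Of the 5 other ErbB ligands and receptor, 1 was 2-fold higher and 2 were 2-fold lower at P69 among 4 with a signal, and 1 and 0 among 3 at P55. Nrg4, a neuregulin that binds Erbb4, was 1.35 higher at P69 and 1.82 higher at P55 than at P42 (log2). Nrg2, a ligand of Erbb3 and Erbb4, was lower, at -0.55, -1.28, and -2.25 at P42, P55, and P69, and Nrg3, a ligand of Erbb4, was well above background at P42 only (-3.16). Erbb4 itself gave no signal well above background, at -6.58, -6.21, and -7.17, and Nrg1, which binds Erbb3 and Erbb4, was well above background at P69 only (-4.47). Thus, the receptors with a measured signal were the 3 described above.

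Of 7 genes for the shedding and trafficking of ligands, 3 (42.9%) were 2-fold higher and 1 (14.3%) was 2-fold lower at P69, and 3 and 1 at P55. Adam10, the protease that releases Egf and Btc, had levels of 0.65, 1.85, and 2.34. Rhbdf1 (iRhom1), which takes Adam17 to the cell surface, was at 0.81, 2.66, and 2.08. Adam17, the main protease for Tgfa, Areg, Ereg, Hbegf, and Epgn, was 1.45 higher at P55 and 0.70 higher at P69 on the log2 scale. Adam10, Rhbdf1, and Adam17 were higher at both later ages, Adam17 by less than 2-fold at P69. Rhbdf2 (iRhom2), the relative of Rhbdf1 in this list, was at 0.34, 0.82, and 0.29. Its log2 change was 0.49 at P55 and -0.05 at P69. Adam12, another protease that can release Hbegf, was 2-fold lower on both arrays, with a log2 change of -1.61 at P69 and a bound of -2.15 at P55, where it was not well above background.

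Of 26 adaptors and kinases of the cascade, 7 of 25 with a signal (28.0%) were 2-fold higher and 1 was 2-fold lower at P69, and 10 (40.0%) and 2 (8.00%) at P55. Among those past 2-fold on both arrays were Ptpn11 (Shp2), the phosphatase that links receptors to Ras (1.54 at P69 and 1.49 at P55), Hras (1.43 and 1.96), Araf (1.27 and 1.80), the Ras exchange factor Sos2 (1.31 and 1.499), and the transcription factor Stat5b (1.10 and 1.60). The kinase Braf fell by 1.79 at P69 and by 1.76 at P55 on the log2 scale, the only gene of this list that was 2-fold lower on both arrays.

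Of 20 inhibitors and turnover genes, 7 (35.0%) were 2-fold higher and 2 were 2-fold lower at P69, and 6 (31.6%) and 1 (5.26%) of the 19 with a signal at P55. The share higher at P55 is close to that of all genes (28.9%). Lrig1, which promotes the degradation of ErbB receptors, was at -1.58 at P42, 0.77 at P55, and 0.75 at P69, an increase of 2.33 to 2.35. Its relative Lrig2 went down, from 3.23 to 1.72 and 1.84. Errfi1 (Mig6), which binds and inhibits Egfr, was 1.39 higher at P69 and 1.07 higher at P55, and Spry1, an inhibitor of Ras signaling, was 1.73 and 1.45 higher.

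Of 11 genes that respond to ERK, 1 was 2-fold higher and 3 (Dusp5, Etv4, and Fosl1) were 2-fold lower at P69, and 2 and 0 at P55. The 27.3% lower at P69 are near the 20.9% of all genes. Phlda1 was the gene 2-fold higher on both arrays (1.27 and 1.70), and the median of the list was 0.21 at P69 and 0.27 at P55.

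The sort markers were measured on all arrays, Adgre1 (F4/80) at 4.83, 5.51, and 5.15 and Itgam (CD11b) at 8.95, 8.73, and 7.85. All 14 macrophage markers on the array (of 15) were well above background on each array, with a summed linear signal of 1046, 970.3, and 630.4 times the 75th percentile at P42, P55, and P69. Itgam had the largest part in each sum. Of the 14, 3 were at least 2-fold lower and 0 higher at P69 than at P42 (median log2 change -0.43). At P55, 2 were lower and 0 higher (median -0.33). Nevertheless, keratinocyte markers were higher on both later arrays. At P69 16 of 20 and at P55 18 of 20 were at least 2-fold higher than at P42 (median log2 change 2.96 and 3.32), with Krt5 at 1.58, 5.55, and 4.91 and Krt14 at 1.22, 4.35, and 4.09. Their summed signal was 282.1 at P42, 435.5 at P55, and 300.6 at P69, of which Trp63 alone gave 261.5, 263.4, and 163. The other 19 markers summed to 20.6, 172, and 137.6, and only Krt6a and Cdh3 at P42 were not well above background. Keratinocytes also express Egfr, Erbb2, Erbb3, and several of the ligands. The part of these cells in the values of the family and of the pathway lists, Lrig1 among them, was not tested.

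Markers of Langerhans and dendritic cells, which share CD11b and F4/80 with macrophages, had a summed signal of 18.9 at P42, 130 at P55, and 74.4 at P69 (5 of 6 genes on the array, all well above background). The increase was that of Cd207 (3.78, 6.76, and 5.90) and Itgax (1.58, 4.31, and 3.76), whereas Ccr7 was lower at P69 (log2 -1.70). Fibroblast markers had sums of 99.2, 46.7, and 49.9. Of these, 4 of 10 were 2-fold lower at P69 and 4 of 9 at P55, Col3a1, Dcn, and Pi16 on both, whereas Dpt was 2-fold higher at P69 (log2 1.87). Erbb3 is also a receptor of Schwann cells and melanocytes. Schwann cell markers had sums of 11.9, 7.09, and 7.39, with 2 of 7 at least 2-fold lower at P55, where 5 of 7 were well above background. Melanocyte markers had sums of 3.20, 6.95, and 6.87, and 4 of 7 were 2-fold higher at P55. The part of these cells in the change of Erbb3 was not tested.

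T cell markers had sums of 3.75, 10.4, and 6.81, and those of endothelial cells sums of 20.5, 12.0, and 18.5. Of the endothelial markers, 3 of 6 were at least 2-fold lower at P55 than at P42, and Vwf was highest there (1.49, 1.88, and 1.38). Mast cell markers had sums of 3.54, 1.64, and 1.20, and neutrophil markers sums of 82.5, 52.3, and 42.6. The largest part was that of a single gene in each list, Tpsb2 (levels of 1.67, 0.50, and -0.39) and Csf3r (6.36, 5.70, and 5.40). The other markers of these lists did not move together. Cma1 and S100a8 were above P42 at both later ages, whereas Mcpt4 was below it. The part of all these cell types in the values of the family and of the pathway lists was not tested.

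**Figure D4:**
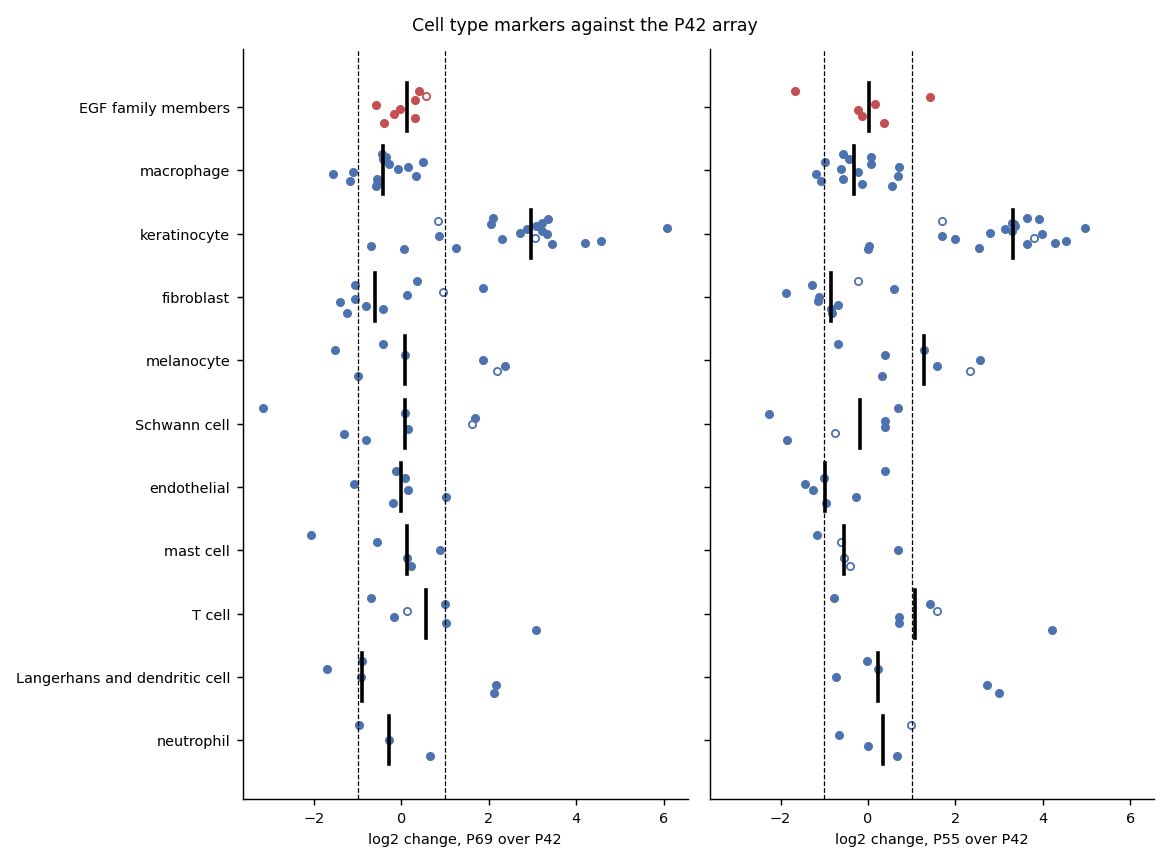
Log2 changes of the EGF family (red) and of 10 lists of cell type markers (blue) against the P42 array, at P69 (left) and P55 (right). Each point is a gene, open points are bounds, black lines are medians, and dashed lines mark 2-fold changes. The keratinocyte medians (2.96 and 3.32) lie far to the right, while the members measured on both arrays, other than Erbb2 and Erbb3, stay between the dashed lines.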

How the data were processed

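RNA of the sorted cells, pooled from 3 littermates per age, was amplified (TransPlex WTA2), labeled with Cy3, and hybridized to 1 Agilent array per age. The authors quantified the scans with Feature Extraction 10.7.3.1 and deposited linear spot intensity values, background-corrected by that software and not scaled between arrays. Their deposited log2 table (36409 probes, among them 7 of 6 members) was used as an alternative. It is scaled like the values here.

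Control and outlier spots (162, 274, and 281 at P42, P55, and P69) were left out, and no spot was saturated. Of 55681 probes, 71.4%, 59.6%, and 68.7% were well above background, and the 75th percentile was 22.6, 16.5, and 34.3 times the lowest such signal. The number of arrays limits the precision. Where 1 of the signals compared was well above background, the change is a bound against the higher of the floor and the value of the dim probe. Where neither was, or the bound was below 1-fold, none is given. Probes were named by transcript through RefSeq (GRCm38.p6), and a gene was represented by its brightest probe. The array design names another build (mm9), so only RefSeq promoter coordinates are given. Python 3.11.15, numpy 2.4.6, pandas 2.3.3, and limma 3.58.1 in R 4.3.3 (normexp, offset 50) were used, and the steps were tested on simulated data.

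The members and lists were chosen with earlier results of these data known. Named were all members, list genes well above background on every array and at least 2-fold from P42 in 1 direction on both later arrays, the sort markers, Krt5, Krt14, and list genes that bear on a member (Adam17, Erbb4, and Nrg1). Other genes were named after their values were seen, and some genes that meet the rule are not reported here by name. The 14 alternatives concerned scaling, background correction, the authors' table, the assignment of arrays, filters, the choice of probe, and the fold threshold.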

Additional observations from a re-analysis of the deposited data

How the results depend on the processing

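The counts of members past 2-fold were recomputed under 14 alternatives. From P42 to P69, where no member passed, the number higher was 1 with median scaling, 2 with quantile normalization, 5 without scaling, 1 with the authors' table, 1 with the P55 and P69 arrays exchanged, 2 without the filter on dim probes, and 1 with probes in place of genes. The number lower was 2 with the authors' table, 1 with the arrays exchanged, 1 without the filter, and 1 at 1.5-fold. From P42 to P55 (1 higher and 1 lower), the number higher was 0 with normexp, 2 with the authors' table, 0 with the arrays exchanged, and 0 at 10-fold, and the number lower was 0 with the arrays exchanged, 2 without the filter, and 0 at 10-fold. Counts from the authors' table use no filter on dim probes. From P42 to P55 that table gave 0.32 for Erbb2 and -0.04 for Erbb3, so its 2 higher and 1 lower were other members. From P55 to P69 (1 and 1), the number higher was 3 without scaling, 2 with probes in place of genes, and 0 at 10-fold. The number lower was 0 with the 75th percentile over probes well above background on all arrays, without scaling, with normexp, with outlier spots kept, and at 10-fold. The changes from P55 to P69 reversed with the other assignment of the arrays, to 1.09 (authors' table) or 1.08 (arrays exchanged) for Erbb2 and to -1.62 or -1.63 for Erbb3 (log2), by construction. Of the 212 recomputed changes of single members, 123 stayed within the technical SD. Part of these could not move. The settings of the filter leave a change measured on both arrays as it was, by construction. The median over probes does so for genes with a single probe. The 123 are thus no measure of stability. Of all 212, 34 had the other sign, 4 of them (the above) for a change past 2-fold. The scaling shifts all genes: the median log2 change from P42 to P69 was 0.20 as reported, -0.01 with the 75th percentile over probes well above background on all arrays, 0.72 with median scaling, and 1.36 without scaling, and the share of genes with a value at least 2-fold higher ranged from 15.7% to 60.2% and lower from 25.7% to 3.77%. No paired analysis was possible because each age has 1 array. The cause of the other shifts was not tested. Dim probes limit the rest: Btc, Tgfa, Epgn, Erbb2, and the 10-spot Egfr probe lay within a few fold of the floor, where normexp shrank the changes of Erbb2 and Egfr.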
